A study of Mus musculus with 4 samples.

Results

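The 10 CC chemokine ligand genes Ccl2, Ccl3, Ccl4, Ccl5, Ccl6, Ccl7, Ccl9, Ccl17, Ccl22 and Ccl24 were followed in bone marrow-derived macrophages of Cdk5r1 knockout and wildtype mice. They were taken as all probes whose accession belongs to 1 of these symbols, and each symbol had 1 probe, so the 10 members stood among 23570 genes tested. Each of 4 two-colour Agilent arrays held knockout RNA labelled with Cy5 and wildtype RNA labelled with Cy3. The knockout and wildtype cells came from male mice 6 weeks old, and the labels give the strain B6.129S4-Cdk5r1tm1Lht/J for both. Marrow cells had grown for 7 days in medium holding 25 ng/ml of GM-CSF, a myeloid growth factor. LPS, the lipopolysaccharide of the outer membrane of E. coli, was given at 100 ng/ml for 6 h to the cells of 2 arrays, and the cells of the other 2 arrays were left in the basal state. The 4 groups were therefore LPS-treated knockout, LPS-treated wildtype, basal knockout and basal wildtype, with 2 samples each. Arrays of a condition are biological replicates per the labels, which name no animals or pools, so every p-value measures the spread between these arrays.

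CC chemokines are small secreted proteins that draw leukocytes along a gradient by binding G protein-coupled CC receptors. Macrophages make many of them after toll-like receptor ligands such as LPS, through NF-kappaB and interferon-driven factors, while Ccl17, Ccl22 and Ccl24 are known also as genes of the interleukin-4 response. Cdk5r1 encodes p35, the activator of the kinase Cdk5, and the arrays compare cells without and with it. GM-CSF cultures of bone marrow are known to hold dendritic-like cells and granulocytes beside macrophages.

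Of the members, 7 lie on chromosome 11, in the order Ccl2, Ccl7, and further along Ccl5, Ccl9, Ccl6, Ccl3 and Ccl4, the last 5 as direct neighbours. Ccl22 and Ccl17 lie on chromosome 8 with Cx3cl1 between them, and Ccl24 lies on chromosome 5. Promoter sequences, from 250 bases before the start to 50 bases from it, were matched for 5 of the 10 members in RefSeq of build GRCm38.p6 (Ccl3, Ccl6, Ccl9, Ccl17 and Ccl22). Those of Ccl6 (chr11:83593038-83593337, minus strand) and Ccl9 (chr11:83578587-83578886, minus strand) are shown because these adjacent genes encode ligands of the same receptor, and LPS raised Ccl9 in both genotypes while Ccl6 rose in neither. Capitals mark bases within runs of 12 or more found in both. The 19 capitals of Ccl9 join overlapping runs of 12 and 13 bases, which lie apart in Ccl6. 
Ccl6: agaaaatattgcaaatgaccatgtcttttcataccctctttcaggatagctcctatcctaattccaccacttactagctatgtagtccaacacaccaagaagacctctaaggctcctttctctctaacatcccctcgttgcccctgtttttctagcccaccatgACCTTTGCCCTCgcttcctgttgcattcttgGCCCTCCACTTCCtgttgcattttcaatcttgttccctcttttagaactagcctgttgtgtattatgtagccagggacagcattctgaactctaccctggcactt
Ccl9: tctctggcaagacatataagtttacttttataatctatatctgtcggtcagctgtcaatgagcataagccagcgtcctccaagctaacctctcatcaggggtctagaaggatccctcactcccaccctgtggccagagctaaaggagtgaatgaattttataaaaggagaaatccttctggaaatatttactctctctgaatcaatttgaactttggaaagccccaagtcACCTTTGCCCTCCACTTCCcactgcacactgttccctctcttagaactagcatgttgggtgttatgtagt
In a global alignment these windows were identical at 164 of 241 aligned bases, or 68.0%, against 53.2% to 62.5% for the other 9 pairs among the 5 windows. Their longest shared run was 13 bases, against 7 to 10 bases in the other pairs. In Ccl9 the marked stretch ended 2 bases before the start, and in Ccl6 the 2 runs ended 75 and 43 bases before it.

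The windows of Ccl17 (chr8:94810203-94810502, plus strand) and Ccl22 (chr8:94745434-94745733, plus strand) are shown because these neighbours both encode ligands of CCR4 and had the smallest and the largest LPS response in wildtype cells among the members that rose. Capitals in Ccl17 mark the STAT6 pattern TTCNNNNGAA, at bases 154 to 145 before the start. Ccl22 does not hold it in this window and carries no capitals.
Ccl17: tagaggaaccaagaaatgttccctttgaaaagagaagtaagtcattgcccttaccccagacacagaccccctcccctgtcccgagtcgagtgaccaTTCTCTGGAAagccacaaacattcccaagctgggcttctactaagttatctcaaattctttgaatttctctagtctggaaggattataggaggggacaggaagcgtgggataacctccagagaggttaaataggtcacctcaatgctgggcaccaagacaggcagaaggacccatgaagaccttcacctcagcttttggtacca
Ccl22: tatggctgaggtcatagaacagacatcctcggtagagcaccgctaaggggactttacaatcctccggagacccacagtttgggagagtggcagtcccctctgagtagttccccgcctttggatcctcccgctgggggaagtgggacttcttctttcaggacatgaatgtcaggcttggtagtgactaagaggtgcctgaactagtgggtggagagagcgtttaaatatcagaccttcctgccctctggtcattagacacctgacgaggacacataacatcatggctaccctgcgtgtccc
Patterns were searched on both strands, and of all 32851 promoter windows 6.95% held the STAT6 pattern. The NF-kappaB consensus was in 4.51% of windows and among the 5 members in Ccl9, 35 to 26 bases before the start. The AP-1 pattern TGANTCA was in 7.81% of windows and in Ccl9, and TATAAA was in 13.6% and in Ccl9. GAAANNGAAA, the core of the interferon response element, and GGAANNGAAA, the ETS-IRF composite, were in 3.44% and 2.72% of windows and in none of the 5. These matches describe letters and not binding, and a window without a match says nothing about the factor.

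Median foreground intensities were 116 to 145.5 in the Cy5 channel and 76.0 to 97.5 in the Cy3 channel, and 62.1% to 65.0% and 68.3% to 71.0% of the probe spots were well above background. Cdk5r1 gave a log2 ratio of knockout over wildtype of -2.55 and -2.29 on the LPS arrays and of -0.37 and -0.59 on the basal arrays. It was lower in the knockout under LPS (-2.42 ± 0.094, SE, n = 2, limma adjusted p = 6.67e-05) and in the basal state (-0.48 ± 0.094, adjusted p = 0.0395), and its probe stayed well above background in the knockout channel. Where this probe lies relative to the deleted stretch was not examined, so its remaining signal is no check of the labels. The basal Cdk5r1 call was lost without any 1 of the 4 arrays (adjusted p from 0.066 to 0.25), with median centring (adjusted p = 0.0548) and with the processed signals of the scanner software and the authors' value table (adjusted p = 0.15 in both). In both channels of all arrays the 8 measured macrophage markers were well above background, and so were 9 dendritic cell and 11 granulocyte markers. The dyes were not swapped, so a dye effect of a probe and the genotype cannot be told apart in a ratio, whereas a constant dye effect drops out when the ratios of 2 conditions are subtracted.

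All 10 members were well above background in both channels on all 4 arrays and none was saturated, so all passed the filter on dim probes. By mean intensity, 7 of the 10 lay among the brightest 5% of tested genes, at percentiles from 96.2 (Ccl2) to 99.9 (Ccl17). Ccl22 lay at the 83.7th percentile, Ccl7 at the 79.0th and Ccl24 at the 51.9th. The Ccl2 probe was spotted 10 times on each array, and the SD of its log2 ratio over these spots was 0.024 to 0.032. Its mean ratio ran from -0.09 to 0.38 over the arrays, so arrays differed by far more than spots. Intensities of different probes are not comparable and each member is described against itself. RNA came from bulk cultures, in which fewer cells of a type and less RNA per cell cannot be told apart.

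LPS raised most of the family in both genotypes. In knockout cells 8 of the 10 members rose and 1, Ccl6, fell, against 40.9% of all genes called, 19% as higher and 21.9% as lower (limma, adjusted p under 0.05). In wildtype cells 9 of 10 rose and none fell, and Ccl6 was not called (-0.16, adjusted p = 0.27), again against 40.9% of all genes, 18.2% as higher and 22.7% as lower. The median log2 change of the members was 2.22 in knockout and 2.29 in wildtype cells, beside -0.0071 and -0.00032 for all genes.

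**Figure D1:**
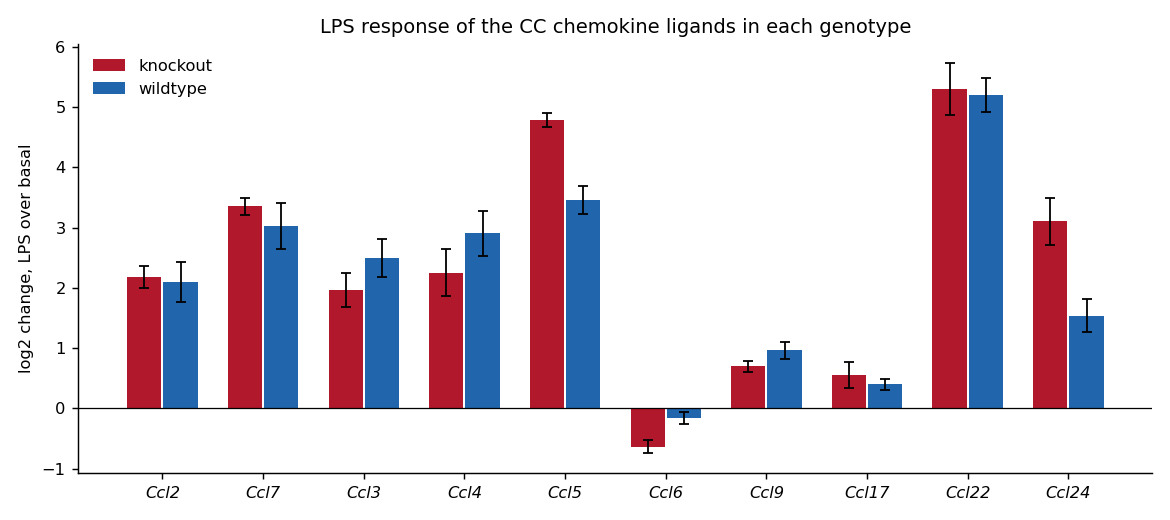
Bars give the log2 change of LPS over basal for each ligand, red for knockout and blue for wildtype cells, with error bars of 1 SE of the limma fit (n = 2 arrays per condition). Ccl22 has the tallest bars (5.30 in knockout, 5.20 in wildtype), Ccl5 and Ccl24 are taller in knockout cells, and Ccl6 alone lies below 0 in both; without loess and with 75th percentile scaling Ccl6 was at -0.06 in knockout and 0.38 in wildtype cells, where the median gene moved by 0.37 and 0.35.

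Knockout and wildtype cells differed in 5 ligands under LPS and in 1 in the basal state, and whether the conditions differ is tested further on. Under LPS 1 member (Ccl24) was higher and 4 (Ccl3, Ccl4, Ccl6 and Ccl9) were lower in the knockout, against 12.4% of all genes called, 7.17% higher and 5.23% lower. With median centring in place of loess normalisation the log2 ratios of Ccl3, Ccl4 and Ccl6 were positive, at 0.19, 0.13 and 0.26, none past the threshold. In the basal state 1 member (Ccl5) was lower and 0 were higher, against 4.87% of all genes, 3.37% higher and 1.49% lower, and 3 of the 10 had an unadjusted p under 0.05, beside 19.8% of all genes. Averaged over both conditions 3 members (Ccl17, Ccl22 and Ccl24) were higher and 1 (Ccl9) was lower, against 18.2% of all genes, 9.94% higher and 8.22% lower. With median centring 5 members were higher and 0 lower under LPS, 4 and 1 in the basal state, and 8 and 0 averaged. Of all genes it called 4612 higher and 845 lower under LPS, 3883 and 634 in the basal state, and 7306 and 1636 averaged. The median absolute log2 ratio of the members was 0.46 under LPS and 0.14 in the basal state, beside 0.12 and 0.092 for all genes.

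**Figure D2:**
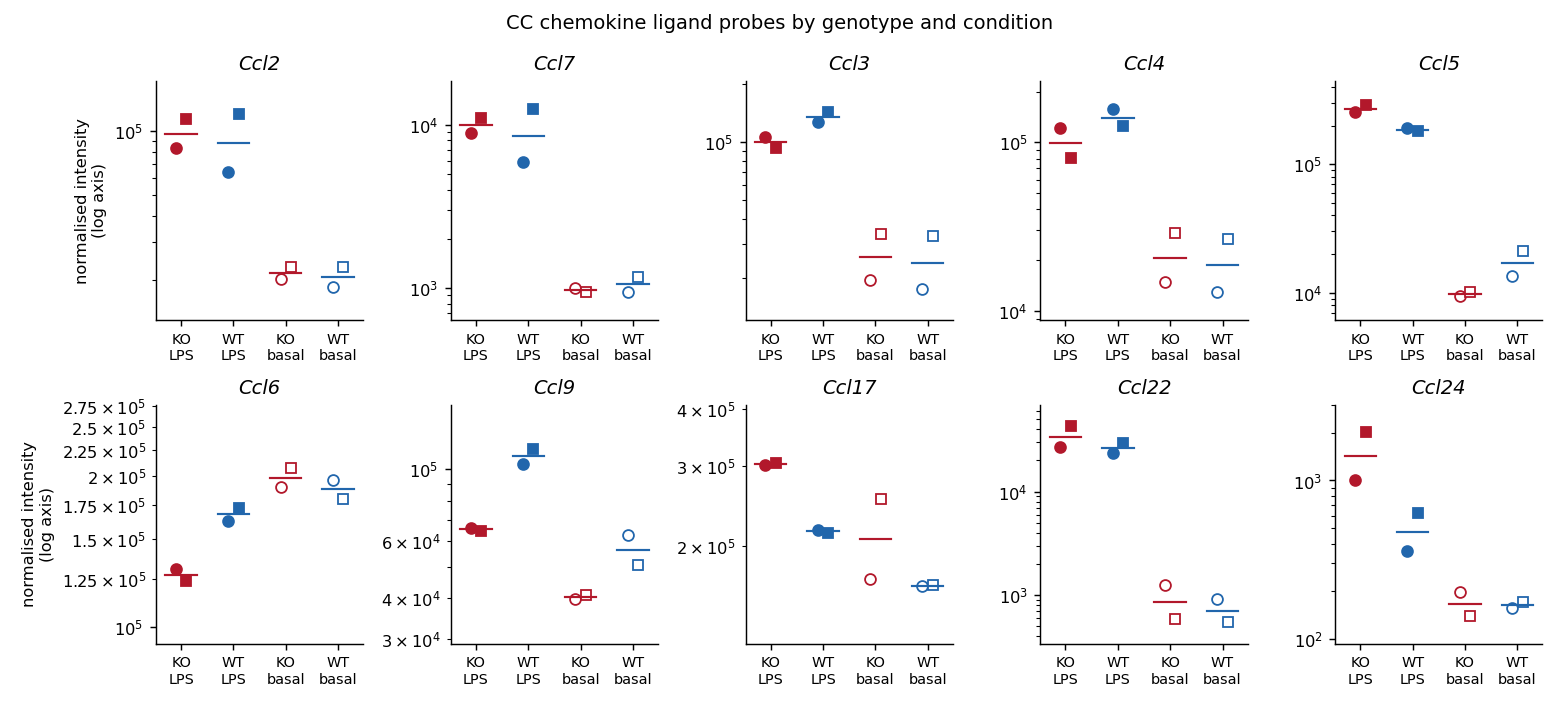
Normalised intensity of each ligand on a log axis, with LPS (filled) left of basal (open) and knockout (red) left of wildtype (blue); circles are replicate 1, squares replicate 2 and lines the mean of the log2 values. Under LPS Ccl24 is higher in the knockout (1010 and 2020 against 362 and 625), and Ccl9 is lower in the knockout in both conditions.

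Ccl2 and Ccl7 encode ligands of CCR2 that draw monocytes out of the marrow and into tissue. Ccl2 intensities were 83419 and 113676 in LPS-treated knockout, 64023 and 120636 in LPS-treated wildtype, 20253 and 22874 in basal knockout and 18449 and 22911 in basal wildtype cells. Every LPS value lay above every basal value, while knockout and wildtype values overlapped in both conditions. Ccl2 rose with LPS 4.52-fold in knockout (log2 2.18 ± 0.19, SE, n = 2, limma adjusted p = 0.0023) and 4.27-fold in wildtype cells (2.10 ± 0.33, adjusted p = 0.0084). The wildtype call was lost without basal replicate 1 (1.94, adjusted p = 0.0545). Its log2 ratio of knockout over wildtype was 0.15 ± 0.12 under LPS and 0.07 ± 0.12 in the basal state, neither past the threshold (adjusted p = 0.45 and 0.80). With median centring the LPS ratio was 0.74 and did pass (adjusted p = 0.0108).

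Ccl7 intensities were 8922 and 10981 in LPS-treated knockout, 5870 and 12474 in LPS-treated wildtype, 997 and 941 in basal knockout and 947 and 1174 in basal wildtype cells. Both wildtype LPS values enclosed the knockout ones, so the groups overlapped there, as they did in the basal state. Ccl7 rose 10.2-fold in knockout (3.35 ± 0.14, SE, n = 2, limma adjusted p = 0.00066) and 8.12-fold in wildtype cells (3.02 ± 0.38, adjusted p = 0.0047). Its ratio of knockout over wildtype was 0.60 on 1 LPS array and -0.18 on the other, and at 0.21 ± 0.18 it did not pass (adjusted p = 0.50). On the same 2 arrays Ccl2 stood at 0.38 and -0.09.

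Ccl3 and Ccl4 encode the macrophage inflammatory proteins MIP-1alpha and MIP-1beta, which act on monocytes, T cells and natural killer cells. Ccl3 intensities were 106499 and 93460 in LPS-treated knockout, 127021 and 142693 in LPS-treated wildtype, 19528 and 33645 in basal knockout and 17507 and 32736 in basal wildtype cells. Both LPS-treated knockout values lay below both wildtype ones, and in the basal state the genotypes overlapped. Ccl4 intensities were 120986 and 80593 in LPS-treated knockout, 156733 and 124127 in LPS-treated wildtype, 14761 and 29081 in basal knockout and 12993 and 26768 in basal wildtype cells. Its LPS-treated knockout values also lay below the wildtype ones, by a narrow margin. Under LPS Ccl3 was 1.35-fold lower in the knockout (log2 -0.43 ± 0.099, SE, n = 2, limma adjusted p = 0.0373), and with median centring its log2 ratio was 0.19 (adjusted p = 0.37). Ccl4 was 1.41-fold lower (-0.50 ± 0.083, adjusted p = 0.0135), and with median centring it was at 0.13 (adjusted p = 0.52).

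Both calls were also lost without LPS replicate 1 (Ccl3 -0.61, Ccl4 -0.62, adjusted p = 0.0616 and 0.0556) and without LPS replicate 2 (-0.25 and -0.37, adjusted p = 0.25 and 0.13), when a single LPS array was left. The Ccl3 call was lost too with the processed signals of the scanner software and with the authors' value table (-0.56 in both, adjusted p = 0.0814 and 0.0825). Basal ratios were 0.10 for Ccl3 and 0.15 for Ccl4, neither past the threshold, and with median centring Ccl4 was at 0.50 and passed (adjusted p = 0.0363). LPS raised Ccl3 3.89-fold in knockout (1.96 ± 0.28) and 5.62-fold in wildtype cells (2.49 ± 0.31). It raised Ccl4 4.77-fold in knockout (2.25 ± 0.39) and 7.48-fold in wildtype cells (2.90 ± 0.37). Among the members these adjacent genes were nearest to each other over the 4 fitted log2 values, with a Euclidean distance of 0.51.

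Ccl5 encodes RANTES, which recruits T cells and is known as a late gene of the LPS response. Its intensities were 253211 and 287598 in LPS-treated knockout, 190106 and 182008 in LPS-treated wildtype, 9483 and 10170 in basal knockout and 13521 and 21339 in basal wildtype cells. The genotypes did not overlap in either condition, with the knockout above wildtype under LPS and below it in the basal state. The log2 ratios were 0.41 and 0.66 on the LPS arrays and -0.51 and -1.07 on the basal arrays. In the basal state Ccl5 was 1.73-fold lower in the knockout (-0.79 ± 0.14, SE, n = 2, limma adjusted p = 0.0245). That call was lost without basal replicate 2 (-0.51, adjusted p = 0.10), without either LPS array (adjusted p = 0.0733 for both) and with the processed signals and the authors' value table (-0.77 in both, adjusted p = 0.12 and 0.13). Under LPS the ratio was 0.54 ± 0.14, just short of the threshold (adjusted p = 0.0511). With the processed signals it was 0.22, the lowest of the alternative settings, and did not pass. It passed without either basal array (adjusted p = 0.0095 in both), without a filter on dim probes (adjusted p = 0.0435), with the mean over kept probes (adjusted p = 0.0472) and with median centring (1.26, adjusted p = 0.00045). Ccl5 rose with LPS 27.5-fold in knockout (4.78 ± 0.12, adjusted p = 0.00044) and 11.0-fold in wildtype cells (3.45 ± 0.23, adjusted p = 0.0011).

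Ccl6 and Ccl9 encode ligands of CCR1 that are made constitutively by myeloid cells of the mouse. Ccl6 intensities were 130444 and 123795 in LPS-treated knockout, 162942 and 172850 in LPS-treated wildtype, 189555 and 207444 in basal knockout and 196172 and 179898 in basal wildtype cells. In both genotypes the LPS values lay below the basal ones, and under LPS both knockout values lay below both wildtype ones. In knockout cells LPS lowered Ccl6, with a log2 change of -0.64 ± 0.11 (SE, n = 2, limma adjusted p = 0.0118), and the call was lost without either basal array (adjusted p = 0.0588 and 0.0897). With 75th percentile scaling the same change was -0.06 (adjusted p = 0.70), or -0.43 relative to the median of all genes. In wildtype cells it was -0.16 ± 0.10, and 0.38 with 75th percentile scaling, or 0.03 relative to the median of all genes.

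Under LPS Ccl6 was 1.32-fold lower in the knockout (-0.40 ± 0.088, SE, n = 2, limma adjusted p = 0.0335), and with median centring its ratio was 0.26 (adjusted p = 0.18). The call was lost without LPS replicate 1 (-0.48, adjusted p = 0.15), without LPS replicate 2 (-0.32, adjusted p = 0.24), with the processed signals and the authors' value table (-0.65 and -0.64, adjusted p = 0.0592 and 0.0585). Its basal ratio was 0.08 ± 0.088 and was not called, and with median centring it was 0.70 and passed (adjusted p = 0.0096).

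Ccl9 intensities were 66054 and 64525 in LPS-treated knockout, 104049 and 115543 in LPS-treated wildtype, 39676 and 41059 in basal knockout and 62582 and 50570 in basal wildtype cells. The knockout lay below wildtype on all 4 arrays, with no overlap in either condition. Under LPS Ccl9 was 1.68-fold lower (-0.75 ± 0.10, SE, n = 2, limma adjusted p = 0.0066), and averaged over both conditions 1.53-fold lower (-0.61 ± 0.072, adjusted p = 0.0027). Its basal ratio was -0.48 ± 0.10 with adjusted p = 0.0538, and it passed without basal replicate 2 (-0.66, adjusted p = 0.0326), without a filter on dim probes (adjusted p = 0.0428) and with the mean over kept probes (adjusted p = 0.0488). The LPS call was lost without LPS replicate 1 (-0.84, adjusted p = 0.0696), without LPS replicate 2 (-0.66, adjusted p = 0.11) and with median centring (-0.17, adjusted p = 0.39). Median centring also ended the averaged call (-0.10, adjusted p = 0.43), and it put the basal ratio at -0.03, which did not pass. Ccl9 rose with LPS 1.62-fold in knockout (0.69 ± 0.097, adjusted p = 0.0075) and 1.95-fold in wildtype cells (0.96 ± 0.14, adjusted p = 0.0072), and the knockout call was lost without either basal array (adjusted p = 0.0617 and 0.0597).

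Ccl17 and Ccl22 encode TARC and MDC, ligands of CCR4 that attract T helper 2 and regulatory T cells and are made by dendritic cells and alternatively activated macrophages. Ccl17 intensities were 301249 and 305335 in LPS-treated knockout, 217139 and 214234 in LPS-treated wildtype, 169881 and 253658 in basal knockout and 163800 and 164159 in basal wildtype cells. The knockout lay above wildtype on every array, most narrowly on the first basal array, where the ratio was 0.05. Averaged over both conditions Ccl17 was 1.33-fold higher in the knockout (0.42 ± 0.092, SE, n = 2 per condition, limma adjusted p = 0.0268). The call was lost without either LPS array (adjusted p = 0.13 and 0.12), with the processed signals and the authors' value table (0.18 in both, adjusted p = 0.33 and 0.32). Under LPS its ratio was 0.47 and 0.51, and at 0.49 ± 0.13 it did not pass (adjusted p = 0.0577), though it did without either basal array (adjusted p = 0.0075 in both). In the basal state it was 0.34 ± 0.13 (adjusted p = 0.22), and without basal replicate 1 it was 0.63 and passed (adjusted p = 0.0302). With median centring both ratios passed, at 1.23 and 0.96 (adjusted p = 0.0011 and 0.0049). With the processed signals the LPS ratio was 0.21 and did not pass.

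LPS raised Ccl17 1.32-fold in wildtype cells (0.40 ± 0.088, limma adjusted p = 0.0237), a call lost without any 1 array (adjusted p from 0.054 to 0.13), with the processed signals (adjusted p = 0.0704) and in the separate-channel fit (adjusted p = 0.19). In knockout cells its change was 0.55 ± 0.21 and did not pass (adjusted p = 0.11), and without basal replicate 2 it was 0.84 and did (adjusted p = 0.0468). With 75th percentile scaling the changes were 1.18 in knockout and 0.90 in wildtype cells, or 0.81 and 0.55 relative to the median of all genes. Already in basal cells this probe read between 163800 and 253658.

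Ccl22 intensities were 26681 and 42662 in LPS-treated knockout, 23452 and 29188 in LPS-treated wildtype, 1241 and 595 in basal knockout and 919 and 550 in basal wildtype cells. The genotypes overlapped in both conditions, although on each array the knockout channel was the higher one. Its LPS response was the largest of the 10 members, 39.3-fold in knockout (5.30 ± 0.43, SE, n = 2, limma adjusted p = 0.0021) and 36.8-fold in wildtype cells (5.20 ± 0.28, adjusted p = 0.00071). Averaged over both conditions Ccl22 was 1.25-fold higher in the knockout (0.32 ± 0.081, adjusted p = 0.0406). That call was lost without basal replicate 1 (0.24, adjusted p = 0.14), without LPS replicate 1 (0.41, adjusted p = 0.0632), without LPS replicate 2 (0.23, adjusted p = 0.16) and with the processed signals and the authors' value table (adjusted p = 0.13 in both). The ratio was 0.37 ± 0.12 under LPS and 0.27 ± 0.12 in the basal state, neither past the threshold, and with median centring both passed, at 0.80 and 0.43 (adjusted p = 0.0022 and 0.0346).

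Ccl24 encodes eotaxin-2, a ligand of CCR3 that attracts eosinophils and is known as a gene of interleukin-4-treated macrophages. Its intensities were 1010 and 2020 in LPS-treated knockout, 362 and 625 in LPS-treated wildtype, 199 and 139 in basal knockout and 156 and 171 in basal wildtype cells. Under LPS both knockout values exceeded both wildtype ones, and in the basal state the genotypes overlapped. It had the largest ratio of the members, 3.01-fold higher in the knockout under LPS (1.59 ± 0.15, SE, n = 2, limma adjusted p = 0.0019). The 2 LPS arrays gave log2 ratios of 1.48 and 1.69. Over the alternative settings that ratio stayed between 1.48 and 1.79, and it lost the call without LPS replicate 2 (1.48, adjusted p = 0.0614). The basal arrays gave 0.35 and -0.30, with a mean of 0.02 ± 0.15 that was not called. LPS raised Ccl24 8.59-fold in knockout (3.10 ± 0.39, adjusted p = 0.0056) and 2.90-fold in wildtype cells (1.54 ± 0.28, adjusted p = 0.0124), and the wildtype call was lost without either basal array (adjusted p = 0.0722 and 0.0634).

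**Figure D3:**
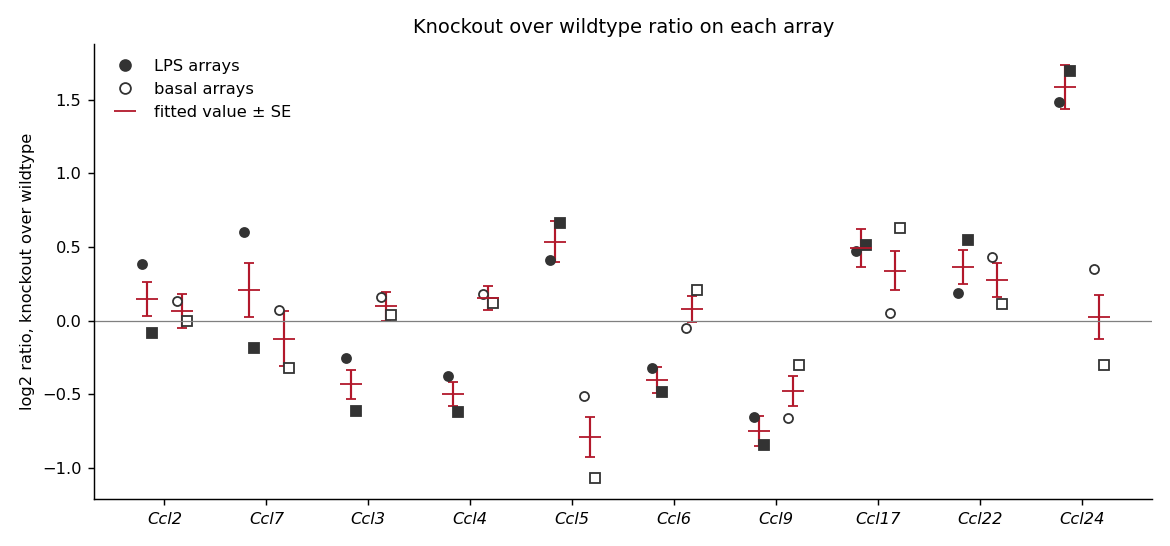
Log2 ratio of knockout over wildtype on each array, with LPS arrays filled and basal arrays open, circles for replicate 1 and squares for replicate 2, and red crosses for the fitted value with 1 SE (n = 2). Ccl24 under LPS stands at 1.48 and 1.69, Ccl9 lies below 0 on all 4 arrays, and Ccl3, Ccl4 and Ccl6 lie below 0 on both LPS arrays, where median centring without loess put their fitted ratios at 0.19, 0.13 and 0.26.

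Whether the genotype difference changed with LPS was tested as the difference of the 2 ratios, in which a constant dye effect cancels. None of the 10 members passed in limma, and of all genes 0.403% were called, 0.28% higher and 0.123% lower. An unadjusted p under 0.05 was reached by 5 of the 10 and by 10.4% of all genes. Ccl24 came nearest, with a difference of 1.57 ± 0.21 (adjusted p = 0.0505), followed by Ccl5 at 1.33 ± 0.19 (adjusted p = 0.0620). Both passed without basal replicate 1 (1.89 and 1.61, adjusted p = 0.0038 and 0.0080), without a filter on dim probes (adjusted p = 0.0292 and 0.0372) and with median centring (1.64 and 1.75, adjusted p = 0.0180 and 0.0063). Ccl24 also passed without basal replicate 2 (1.24, adjusted p = 0.0281) and with the mean over kept probes (adjusted p = 0.0416). Neither Ccl24 nor Ccl5 passed with the processed signals, with the authors' value table or with the replicate number as a block. With the processed signals the Ccl5 difference was 0.99. The differences of Ccl4 (-0.65 ± 0.12), Ccl3 (-0.53 ± 0.14) and Ccl6 (-0.48 ± 0.12) had adjusted p of 0.12, 0.25 and 0.24.

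The ratios of the bright members depended on how dye and intensity were handled. Without loess, after centring each array on its median ratio, genes in the top 5% of intensity, where 7 of the members lie, had a median log2 ratio of 0.59 under LPS and 0.54 in the basal state. Genes below percentile 50 of intensity had -0.0041 and -0.028. After loess the top 5% had 0.05 and 0.06. Median centring called 4612 genes higher and 845 lower under LPS, beside 1690 and 1232 after loess, and 3883 higher and 634 lower in the basal state, beside 795 and 352. Averaged over conditions it called 7306 higher and 1636 lower, beside 2344 and 1937. Ccl24, of middle intensity, gave 1.71 under LPS with median centring. For the LPS response, 75th percentile scaling without loess called 10878 genes higher and 4212 lower in knockout cells, beside 4478 and 5156, and 10952 higher and 4262 lower in wildtype cells, beside 4284 and 5348, with the median of all genes at 0.37 and 0.35.

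**Figure D4:**
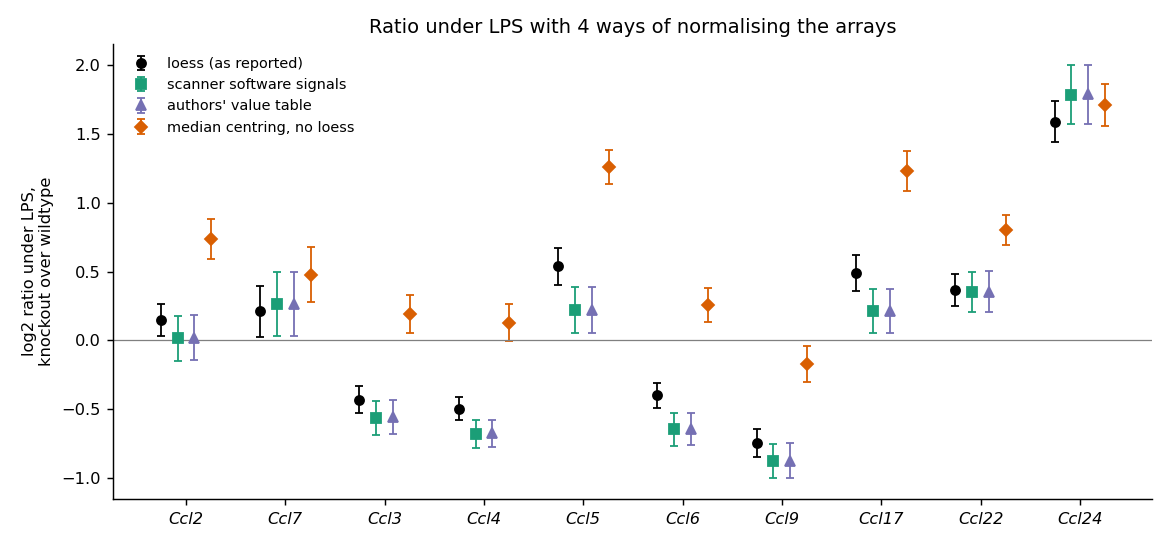
Fitted log2 ratio of knockout over wildtype under LPS for each ligand with 4 normalisations (error bars 1 SE, n = 2): black loess, green processed signals, purple the authors' value table and orange median centring without loess. The authors' values are the processed signals plus a constant per array, so green and purple are not independent of each other. The first 3 place Ccl3, Ccl4 and Ccl6 below 0 and median centring places them above it (0.19, 0.13 and 0.26), while Ccl24 lies between 1.59 and 1.79 in all 4.

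Markers of several cell types, macrophages included, differed between the genotypes. Of all genes 12.4% were called under LPS and 4.87% in the basal state. The summed intensity of the 11 measured granulocyte markers was 111973 to 114437 in LPS-treated knockout and 297174 to 333759 in LPS-treated wildtype cells, and 54735 to 83916 in basal knockout and 112515 to 172974 in basal wildtype cells. Of these 11, 8 were lower in the knockout under LPS and 6 in the basal state, and 0 were higher. With LPS itself 7 of the 11 rose and 1 fell in knockout cells, and 9 rose and 0 fell in wildtype cells. Of all genes, LPS raised 19% and lowered 21.9% in knockout cells, and raised 18.2% and lowered 22.7% in wildtype cells. A sum over probes is weighted to the brightest of them and is no measure of cell number. Of 9 dendritic cell markers 3 were higher and 1 was lower under LPS, with sums of 309126 to 338323 in knockout and 273073 to 286494 in wildtype cells. In the basal state 0 were called, with sums of 112837 to 122679 in knockout and 119164 to 132979 in wildtype cells. With LPS itself 5 of these 9 rose and 4 fell in knockout cells, and 4 rose and 4 fell in wildtype cells. Of 7 eosinophil markers 3 were lower under LPS and 2 in the basal state. Of 7 mast cell and basophil markers 2 were higher and 0 lower in each condition, with sums of 3451 on both arrays in LPS-treated knockout and 2296 to 2489 in LPS-treated wildtype cells, and of 2837 to 4695 in basal knockout and 2407 to 2580 in basal wildtype cells. The 8 macrophage markers summed to 94487 to 125041 in LPS-treated knockout and 115913 to 127725 in LPS-treated wildtype cells. Their basal sums were 194898 to 242463 in knockout and 196595 to 202198 in wildtype cells. Of the 8, 1 was higher and 2 were lower under LPS, and 1 was lower in the basal state. Of 10 T and NK cell markers 1 was higher under LPS, and of 7 stromal markers 1 was higher and 1 lower. In the basal state 1 stromal marker was lower, and none of 5 B cell markers was called in either condition. The part of these cell types in the ligand ratios was not tested.

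The targeted gene lies on chromosome 11 ahead of the ligands, with 5 protein-coding genes between Cdk5r1 and Ccl2 and 40 between Cdk5r1 and Ccl4, members included. Of the 28 other tested genes in that stretch, 1 was higher and 5 were lower in the knockout under LPS (21.4%), and 0 were higher and 4 lower in the basal state (14.3%). On the rest of chromosome 11, 14.5% of 1240 tested genes were called under LPS and 7.66% in the basal state. Whether this stretch differs between knockout and wildtype mice beyond the targeted gene was not examined, and its part in the ligand ratios was not tested.

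Of 13 further CC ligand genes 10 were on the array and 7 passed the filter on dim probes. Of all genes 12.4% were called under LPS, 7.17% higher and 5.23% lower in the knockout. Under LPS 1, Ccl8, a monocyte attractant related to Ccl2, was higher in the knockout (0.97 ± 0.24, SE, n = 2, limma adjusted p = 0.0475), a call lost without LPS replicate 1 (0.79, adjusted p = 0.36), without LPS replicate 2 (1.15, adjusted p = 0.19), with the processed signals and with the authors' value table (adjusted p = 0.24 and 0.25). Beside 19% and 18.2% of all genes, LPS raised 3 of the 7 in knockout and 4 in wildtype cells. Among them were Ccl1, a ligand of CCR8 (5.15 ± 0.72 in knockout and 5.25 ± 0.81 in wildtype cells), and Ccl12, a mouse ligand of CCR2 that lies with Ccl2 and Ccl7 (3.96 ± 0.52 and 3.74 ± 0.42). In basal knockout cells Ccl1 was well above background on 1 of 2 arrays, and its call was lost in each genotype without either basal array (adjusted p from 0.050 to 0.055).

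Of 15 CC receptor and decoy receptor genes 14 were tested. Under LPS 1 was higher and 1 lower in the knockout, beside 12.4% of all genes called. In the basal state 1 was higher and 0 were lower, beside 4.87% of all genes. Ccr6, the receptor of Ccl20, was higher in the knockout in the basal state, with a log2 ratio of 3.90 ± 0.11 (SE, n = 2, limma adjusted p = 3.79e-05). Under LPS Ccr4, the receptor of Ccl17 and Ccl22, was higher in the knockout (0.47 ± 0.079, adjusted p = 0.0140), and Ccr2, the receptor of Ccl2 and Ccl7, was lower (-0.87 ± 0.17, adjusted p = 0.0224). Without either LPS array, with the processed signals and with the authors' value table both calls were lost (adjusted p from 0.081 to 0.21). With LPS 4 receptors rose and 4 fell in each genotype, beside 40.9% of all genes called in each. Ccrl2, which binds chemerin, was at 4.51 in knockout and 4.66 in wildtype cells. Ccr7, which guides dendritic cells to lymph nodes, was at 4.10 and 3.43. The log2 change of Ccr6 with LPS was -5.05 ± 0.19 in knockout and -1.56 ± 0.14 in wildtype cells, and that of Ccr2 was -3.52 ± 0.22 and -3.05 ± 0.17.

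Of 16 tested genes of alternative activation and the interleukin-4 response, known company of Ccl17, Ccl22 and Ccl24, 2 were higher and 3 lower in the knockout under LPS. Of all genes 7.17% were higher and 5.23% lower. Retnla, a secreted resistin-like protein, was higher by 1.89 ± 0.21 (log2, SE, n = 2, limma adjusted p = 0.0030), and the chitinase-like genes Chil3 and Chil4 were lower by 1.32 ± 0.12 and 0.70 ± 0.12 (log2 ratios of -1.32 and -0.70). All 3 calls were lost without either LPS array (adjusted p from 0.055 to 0.16), and that of Chil4 also with the processed signals and the authors' value table (adjusted p = 0.077 and 0.076). All 17 tested genes of the NF-kappaB pathway and its inhibitors rose with LPS in each genotype, beside 19% of all genes in knockout and 18.2% in wildtype cells. Tnfaip3, an inhibitor of the pathway, was at 4.77 in knockout and 4.58 in wildtype cells. Under LPS 2 of the 17 were higher in the knockout and 0 were lower, beside 12.4% of all genes called. These were Tnip3 at 0.72 ± 0.083 and Nfkbiz at 0.40 ± 0.066. Without either LPS array both calls were lost (adjusted p from 0.055 to 0.12), and that of Nfkbiz also with the processed signals and the authors' value table (adjusted p = 0.071 in both).

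Non-member genes nearest to each ligand were ranked by Euclidean distance over 4 fitted log2 values, which were the ratios under LPS and in the basal state and the LPS changes in knockout and wildtype cells. Nearest to Ccl24 were Tnfrsf25 (distance 0.35), Afap1l2 (0.41) and Spic (0.52), and 2 genes lay within a distance of 0.5. Nearest to Ccl5 were Cnn3 (0.45), Serpinb6b (0.66) and Sema7a (0.69), with 1 gene within 0.5. Nearest to Ccl22 were Adora2a (0.23), Dusp2 (0.32) and Cd70 (0.40), with 9 genes within 0.5. Within the same distance Ccl4 had 8 genes, Ccl3 30, Ccl9 45, Ccl7 70, Ccl2 195, Ccl17 724 and Ccl6 1171. Nearest to Ccl4 were Il12a (0.22), Socs3 and Nod2 (both 0.38), and nearest to Ccl3 were Loxl3 (0.21), Socs3 (0.26) and Il23a (0.29). Nearest to Ccl9 were Mogat2, Nr1h3 and Dpys (all 0.24), near Ccl2 lay Oxsr1 (0.06) and Prkag3 (0.11), and near Ccl7 lay Cyria (0.13) and Agrn (0.14). Nearest to Ccl6 were Kbtbd6, Chac1 and Scimp (0.09 to 0.11), and to Ccl17 Triobp, Sp4 and Git2 (0.08 to 0.09). The distances describe likeness over these 4 values of the same 4 arrays.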

How the data were processed

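Expression was measured on 4 two-colour Agilent arrays, 2 basal and 2 LPS, all from 1 slide and 1 scan date, so no batch term could be fitted. Per the file headers, the deposited scanner files hold median foreground and background intensities per spot, made with Agilent Feature Extraction 11.5.1.1 (9.3.2.1 per the submitters' processing notes). Median foreground was used because the files give no mean, which the planned setting had named. The authors' deposited value table holds log2 values, each equal to knockout over wildtype of that array's processed signals plus a constant of -0.0020 to 0.0051 (100% of probes within 0.001). Column medians were 0.016, 0.034, 0.029 and 0.031, and the origin of the constant, which sets the centring, is unknown here.

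In limma 3.58.1 under R 4.3.3, background was corrected by normexp (offset 50), ratios by loess on each array (weight 0 for control spots and flagged outliers), and levels by Aquantile. Of 39429 probes 28635 were kept, those well above background in at least 1 channel on 2 or more of 4 arrays. Accessions were matched to symbols through RefSeq GRCm38.p6 (27508 probes matched), while the array's build is mm9 per the file headers, and the brightest kept probe stood for each of 23570 genes, 15986 of them with a symbol. Knockout over wildtype was fitted on the log2 ratios of all 4 arrays and LPS over basal in each channel, with eBayes and Benjamini-Hochberg adjustment over all genes, two-sided, at a threshold of 0.05. Every adjusted p comes from limma, and SEs are those of the moderated fit. The number of arrays limits the precision. The scripts were tested on simulated data.

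Alternatives were the scanner software's processed signals, other filters, the mean over kept probes, leaving out each array, the replicate number as a block, median centring, the authors' value table, 75th percentile scaling and a separate-channel fit. The ligands and all gene lists were chosen with earlier results of these data known. From each list up to 3 genes with the largest called change in the same direction on both arrays of each condition are named per comparison, and for each ligand the 3 nearest genes, of which some are not reported here. Promoters were aligned with Biopython 1.88.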

Additional observations from a re-analysis of the deposited data

Results flagged for a closer look

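The knockout over wildtype ratios of 3 ligands lay on opposite sides of 0 in the 2 conditions, on every array. For Ccl5 both LPS arrays were above 0 and both basal arrays below it, with a difference of ratios, LPS minus basal, of 1.33 ± 0.19 (SE, limma adjusted p = 0.0620). For Ccl4 and Ccl3 both LPS arrays were below 0 and both basal arrays above it, with differences of -0.65 ± 0.12 (adjusted p = 0.12) and -0.53 ± 0.14 (adjusted p = 0.25). None of the 3 differences passed the threshold, and with median centring the LPS ratios of Ccl4 and Ccl3 were above 0, at 0.13 and 0.19.

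The difference passed the threshold for the targeted gene Cdk5r1, at -1.94 ± 0.13 (adjusted p = 0.0043), with ratios of -2.42 under LPS and -0.48 in the basal state. That call was lost without either LPS array (adjusted p = 0.0588 and 0.0738), and with either set of ratios from the scanner software, processed signals or the authors' value table (adjusted p = 0.0967 and 0.0935). It passed too for the receptor gene Ccr6, at -3.49 ± 0.15 (adjusted p = 0.0012), with ratios of 0.41 under LPS and 3.90 in the basal state, and was lost with the processed signals and the authors' value table (-3.13 in both, adjusted p = 0.23 and 0.22).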

How the results depend on the processing

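Counts are genes called, with ligands among them in brackets. In the order LPS, basal, averaged and difference of knockout effects, then LPS response in knockout and in wildtype cells, they were 2922 (5), 1147 (1), 4281 (4), 95 (0), 9634 (9) and 9632 (9). The processed signals gave 1722 (3) under LPS, 769 (0) in the basal state, 2838 (2) averaged and 6 (0) for the difference. The authors' value table gave 1741 (3) under LPS, 771 (0) in the basal state, 2827 (2) averaged and 8 (0) for the difference. Median centring gave 5457 (5), 4517 (5), 8942 (8) and 214 (2). Scaling to the 75th percentile gave 15090 genes in knockout and 15214 in wildtype cells for the LPS response. Without a filter on dim probes the counts were 1259 (2) in the basal state and 135 (2) for the difference. The stricter filter left 34 (0) for the difference. The mean over kept probes gave 1111 (2) in the basal state and 104 (1) for the difference.

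Leaving out 1 array gave 411 to 3146 genes (0 to 7 ligands) under LPS, 708 to 775 (0 to 2) in the basal state, 1713 to 2990 (2 to 4) averaged, 4 to 198 (0 to 2) for the difference, and 3890 to 9484 (7 to 9) in knockout and 5191 to 8678 (6 to 8) in wildtype cells for the LPS response. Counts moved by over 1.5 times without basal replicate 1 (708 in the basal state, 2617 averaged, 198 for the difference, 4603 in knockout and 5589 in wildtype cells), without basal replicate 2 (744 in the basal state, 3890 and 5191 for the LPS responses), without LPS replicate 1 (515 under LPS, 1713 averaged, 5 for the difference) and without LPS replicate 2 (411, 1834 and 4). A lone array of a condition was assumed to vary like the other condition's pair.

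The replicate numbers are shared by the 2 conditions, and the correlation of the deviations of same-numbered arrays was -0.16. With 2 arrays per condition the deviations mirror each other. This single value therefore cannot decide whether the numbers pair the arrays. With the replicate number as a block the counts were 2160 (5), 927 (1), 3173 (3), 58 (0), 7998 (9) and 8042 (8). Ccl6 under LPS (adjusted p = 0.0615), Ccl22 averaged (adjusted p = 0.0651) and the LPS change of Ccl17 in wildtype cells (adjusted p = 0.0675) did not pass in that fit, and Ccl17 under LPS did (adjusted p = 0.0455). The crossed pairing, added after seeing the data, gave 4397 (8), 1842 (2), 5868 (4), 367 (3), 9451 (9) and 10018 (9).

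Ligand ratios changed sign with median centring for Ccl3, Ccl4 and Ccl6 under LPS (0.19, 0.13 and 0.26), for Ccl7 in the basal state (0.042), and averaged for Ccl3 (0.33), Ccl4 (0.32), Ccl5 (0.38) and Ccl6 (0.48), as did the NF-kappaB subunit Rela averaged (0.24, against -0.19 and adjusted p = 0.0440 after loess). With the processed signals Ccl6 in the basal state was -0.19 and the difference of Ccl2 was -0.090, and with the authors' value table they were -0.18 and -0.089. Ccl6 in wildtype cells changed with LPS by 0.38 under 75th percentile scaling. Leaving out 1 array, basal ratios spanned 0 for Ccl2 (-0.0024 to 0.13), Ccl24 (-0.30 to 0.35), Ccl6 (-0.050 to 0.21) and Ccl7 (-0.32 to 0.075), LPS ratios for Ccl2 (-0.086 to 0.38) and Ccl7 (-0.18 to 0.60), and averaged ratios for Ccl2 (-0.0098 to 0.22), Ccl5 (-0.27 to 0.012) and Ccl7 (-0.15 to 0.24, with -0.05 without basal replicate 1). So did the differences of Ccl2 (-0.15 to 0.32), Ccl7 (-0.062 to 0.73), Ccl17 (-0.14 to 0.44) and Ccl22 (-0.088 to 0.27, with -0.07 without basal replicate 2), and the LPS change of Cdk5r1 in knockout cells (-0.39 to 0.44). Of the values that changed sign, those of Ccl3, Ccl4 and Ccl6 under LPS and of Rela averaged had been called. With median centring the averaged ratios of Ccl3, Ccl4, Ccl5 and Ccl6, not called after loess, passed with the opposite sign (adjusted p = 0.0330, 0.0315, 0.0118 and 0.0049), as did that of Rela (adjusted p = 0.0309). The causes were not tested. Over all settings, ligand values kept their direction and their side of the threshold in 556 cases, lost the call in 46, gained it in 30 and changed sign in 28.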
